A study of Mus musculus with 11 samples.

Results

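Transcripts of 3 families of calcium- or sugar-binding proteins, the annexins, the S100 proteins and the galectins, were followed by RNA sequencing of whole mouse liver. Members were the rows of the count table whose symbol was Anxa, S100a or Lgals followed only by a number and whose counts summed to at least 10 over the 11 livers. Of 33 rows with such a symbol 27 were kept, among 55414 genes in all: 11 annexins, 10 S100 genes and 6 galectins. All mice were male and of the Clec4f-DTR genotype, in which a diphtheria toxin (DT) receptor is expressed from the Clec4f promoter, active in Kupffer cells, the macrophages resident in liver. The 4 DT livers came from mice on western diet with alcohol that received DT in repeated injections. The 4 saline livers came from mice on the same diet that received saline in the same way, and the 3 chow livers from mice on normal chow, whose labels mention no injection. Feeding began at 8 weeks of age and lasted 16 weeks. Chow mice may therefore differ from the others by the injections as well as by the diet, and DT effects outside Clec4f-positive cells cannot be told apart from the loss of those cells, since all groups carried the receptor. The labels number replicates without stating that each was a separate animal. The p-values therefore set group differences against the spread between these samples, which may not be that between animals.

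Annexins bind acidic phospholipids of membranes when calcium rises and take part in membrane repair, vesicle traffic and the handling of dying cells. S100 proteins are small EF-hand calcium sensors that work mostly as dimers, several of them by binding an annexin, and some are released as danger signals. Galectins bind beta-galactoside sugars on glycoproteins and act both inside cells and after secretion. In liver, galectins and annexins are made by macrophages, activated stellate cells and bile duct cells as well as by hepatocytes.

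Promoters of 4 members are shown because their transcripts moved in different ways: Anxa2 was higher on the diet, S100a11 and Lgals3 were higher with DT, and Lgals4 was lower on the diet. Sequences are from RefSeq on build GRCm38.p6, an earlier build than the one used for the counts, and cover 250 bases before to 50 bases after the annotated start, all on the plus strand. Capitals mark the letters TGANTCA, the AP-1 motif, which reads the same on both strands. The Anxa2 window is chr9:69453433-69453732, the S100a11 window chr3:93520246-93520545, the Lgals3 window chr14:47373610-47373909 and the Lgals4 window chr7:28833544-28833843.
Anxa2: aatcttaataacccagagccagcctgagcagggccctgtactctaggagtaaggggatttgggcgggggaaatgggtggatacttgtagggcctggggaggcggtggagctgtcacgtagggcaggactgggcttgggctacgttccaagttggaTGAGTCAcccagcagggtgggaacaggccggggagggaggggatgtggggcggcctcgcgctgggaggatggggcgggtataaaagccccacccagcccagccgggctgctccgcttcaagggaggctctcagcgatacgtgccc
S100a11: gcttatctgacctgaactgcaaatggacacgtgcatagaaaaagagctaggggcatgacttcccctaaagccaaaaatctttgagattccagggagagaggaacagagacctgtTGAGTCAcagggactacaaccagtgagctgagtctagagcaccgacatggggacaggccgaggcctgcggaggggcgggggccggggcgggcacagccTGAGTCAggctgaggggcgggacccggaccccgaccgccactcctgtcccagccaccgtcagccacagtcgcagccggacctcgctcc
Lgals3: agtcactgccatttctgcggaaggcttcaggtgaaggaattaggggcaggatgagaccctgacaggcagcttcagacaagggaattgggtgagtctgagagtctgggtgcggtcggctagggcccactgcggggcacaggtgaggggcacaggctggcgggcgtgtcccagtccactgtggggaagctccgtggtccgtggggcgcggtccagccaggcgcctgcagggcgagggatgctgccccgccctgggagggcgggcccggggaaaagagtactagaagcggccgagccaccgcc
Lgals4: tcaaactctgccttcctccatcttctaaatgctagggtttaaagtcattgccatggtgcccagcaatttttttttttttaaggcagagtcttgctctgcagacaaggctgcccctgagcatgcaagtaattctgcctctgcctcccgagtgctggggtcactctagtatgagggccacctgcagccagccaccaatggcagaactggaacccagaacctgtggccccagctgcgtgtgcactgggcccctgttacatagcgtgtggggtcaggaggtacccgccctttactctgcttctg
The Anxa2 window held 1 AP-1 match, whose first base lies at -95 counted from the start, and the S100a11 window held 2, at -136 and -38. The Lgals3 and Lgals4 windows held none. Of the 27 members 21 had an entry, with 25 windows between them, and 3 of those windows held the motif (those of Anxa2, S100a11 and 1 of the windows of S100a16), against 7.81% of all 32851 promoters in the table. TATAAA, the TATA box, was searched on both strands too and did not overlap the AP-1 matches. It was found in 5 member windows (Anxa1, Anxa2, S100a4, S100a8 and S100a9), against 13.6% of all promoters. A match describes these letters only.

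The libraries held 43995217 to 58089531 counts each, and 17038 genes passed the filter on low counts and were tested. Values are CPM (counts scaled to library size) after TMM scaling, and log2 fold changes (log2 FC), their SE and p-values come from edgeR's quasi-likelihood test over all genes and all 3 groups. A gene rose, fell or was called where its Benjamini-Hochberg adjusted p was below 0.05. The extraction text of the labels covers a CD45-positive sort meant for single-cell libraries, while the label of these samples is whole liver. The 6 hepatocyte markers summed to 60370 to 80350 CPM in DT livers, 75720 to 92470 CPM in saline livers and 91450 to 110400 CPM in chow livers. The 5 Kupffer cell markers summed to 111 to 183 CPM in DT livers, 246 to 359 CPM in saline livers and 197 to 293 CPM in chow livers, and all 5 fell in DT against saline livers. Cd5l had the largest mean of them, at 118 CPM in DT livers and 184 CPM in saline livers, and fell least (log2 FC -0.63). Clec4f averaged 9.485 CPM in DT livers and 45.92 CPM in saline livers (log2 FC -2.28). Vsig4, Marco and Timd4 had log2 FC of -1.61, -2.84 and -4.44, so the sums understate the falls of markers other than Cd5l. DT liver 2 stood apart from DT livers 1, 3 and 4, which had 22405 to 23540 genes with a count and TMM factors of 1.23 to 1.30. The other 8 livers had 20032 to 21033 genes with a count and factors of 0.853 to 0.972. The Kupffer cell markers of DT liver 2 summed to 183 CPM, the highest of the DT livers yet below every saline and every chow liver. Each of the 5 was lower in every DT liver than in every saline liver, where 9.97% of all tested genes were. Because DT liver 2 stood apart, values without it are given beside the calls of members that involve DT livers. This liver was picked from these same data, and leaving out the liver that differs narrows the spread. The adjusted p-values by edgeR without it therefore describe that refit and are not separate support for a call.

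Of the 27 members, 24 were tested: all 11 annexins, 8 S100 genes and 5 galectins. S100a4, S100a14 and Lgals2 did not pass the filter, with at most 11, 14 and 9 counts in any liver. Anxa10, S100a2, S100a3, S100a5, Lgals7 and Lgals12 had fewer than 10 counts in all and are not described further. Per kilobase of exon (GENCODE M21 gene models), the highest mean level was that of Lgals9, at 173 CPM per kb in DT livers, 199 in saline livers and 196 in chow livers. Next in chow livers came S100a1 (118 CPM per kb) and S100a10 (69.7 CPM per kb), then Lgals8 (49.0 CPM per kb) and Anxa6 (46.1 CPM per kb). In the fit to all 11 livers, none of these 5 members, the highest in chow livers, was called in any of the 3 comparisons. The order differed in DT livers, where Anxa5 (102 CPM per kb) lay above S100a1 (99.4 CPM per kb). Anxa5 averaged 57.8 CPM per kb in saline livers and 30.2 in chow livers, and was called in both comparisons that involve DT livers.

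**Figure D1:**
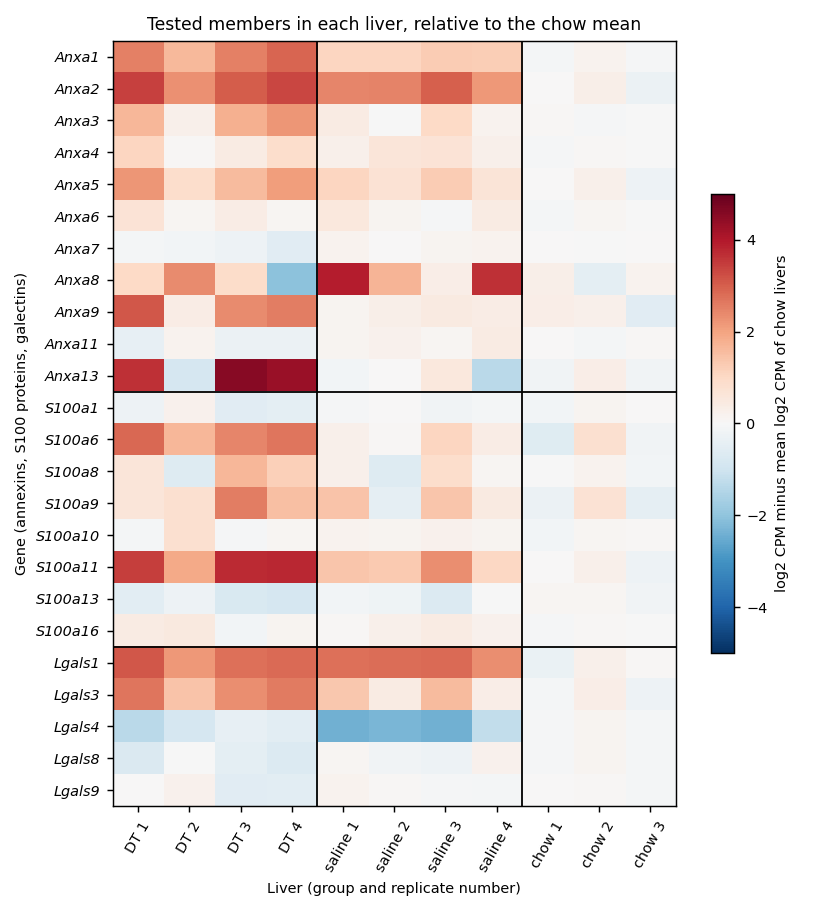
Log2 CPM of the 24 tested members (rows, by family) in each of the 11 livers (columns), minus the mean log2 CPM of the 3 chow livers. Anxa2 and Lgals1 are higher in all 8 livers from the diet with alcohol, Anxa13 and Anxa9 mainly in DT livers 1, 3 and 4, and Lgals4 is lowest in saline livers 1 to 3.

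Western diet with alcohol was first set against chow, in mice that received no DT. Lgals1, Anxa2 and Anxa1 rose and Lgals4 fell in saline livers, while edgeR called none of the 8 tested S100 genes. At an unadjusted p below 0.05 there was 1 of them, S100a11, which DESeq2 called as well and limma-voom did not. Lgals1 and Anxa2 were more than 5-fold higher, and Lgals4 averaged 7.76 CPM in saline livers and 30.9 CPM in chow livers. With 4 of the 24 tested members called (16.7%), the count stands beside 5.58% of all tested genes, a difference that was not tested. The members called were 3 without any 1 chow or saline liver, with limma-voom and with the replicate block. The 3 rises (12.5% of the tested members) stand beside 2.45% of genes called higher, and the 1 fall beside 3.13% called lower. The median log2 FC was 0.28 over the members and 0.00 over all tested genes.

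Lgals1, a galectin that works as a dimer and is made by stellate cells and macrophages among others, was at 41.0, 42.1, 42.8 and 30.1 CPM in saline livers 1 to 4, against 4.74, 7.18 and 6.23 CPM in chow livers 1 to 3. All saline livers lay above all chow livers, with saline liver 4 the lowest of its group. The log2 FC was 2.68 (SE 0.238, adjusted p = 0.000268 by edgeR). Anxa2, which joins S100a10 in a complex that binds plasminogen and its activator at the cell surface, was at 29.4, 30.0, 42.4 and 24.2 CPM in saline livers 1 to 4, against 5.41, 6.55 and 4.36 CPM in chow livers 1 to 3. These groups did not overlap either. The log2 FC of Anxa2 was 2.53 (SE 0.286, adjusted p = 0.001 by edgeR). Both calls held in each of the 11 refits that left out 1 liver and in the other 11 settings tried. Pseudogene copies of Lgals1 and S100a11 are also rows of the count table, so reads shared with them could not be separated.

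Anxa1, a glucocorticoid-induced annexin known as a pro-resolving ligand of formyl peptide receptors, was at 2.28, 2.28, 2.60 and 2.56 CPM in saline livers 1 to 4, against 0.979, 1.19 and 1.02 CPM in chow livers 1 to 3. The groups were tight and did not overlap. Its log2 FC was 1.19 (SE 0.282, adjusted p = 0.031 by edgeR), a call that ended without any 1 of the 3 chow or 4 saline livers, with the highest adjusted p of 0.131 without chow liver 1. It also ended with limma-voom and with the replicate block (adjusted p = 0.153 and 0.088).

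Lgals4, a galectin with linked sugar-binding domains that sorts proteins to the apical surface in gut epithelium, went the other way. It was at 5.83, 6.28, 5.85 and 13.1 CPM in saline livers 1 to 4, against 29.7, 33.9 and 29.1 CPM in chow livers 1 to 3. Saline liver 4 was well above its group yet below every chow liver. This gave a log2 FC of -1.99 (SE 0.296, adjusted p = 0.00401 by edgeR), and the call held in all 11 refits without 1 liver, with log2 FC between -2.37 and -1.85.

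Counting the 3 that rose, 10 tested members lay higher in every saline than in every chow liver, where 14.8% of all tested genes did, and 1 member (Lgals4) lay lower, where 15.6% did. S100a11 and Anxa5 were among the 10 without being called. S100a11, a partner of Anxa1, was at 4.48, 4.19, 8.52 and 3.49 CPM in saline livers 1 to 4 and at 1.70, 2.01 and 1.38 CPM in chow livers 1 to 3 (log2 FC 1.61, adjusted p = 0.0567 by edgeR). Anxa5, the phosphatidylserine-binding annexin used as a probe of dying cells, was at 113, 87.7, 127 and 83.7 CPM in saline livers 1 to 4 and at 53.8, 63.3 and 44.1 CPM in chow livers 1 to 3 (log2 FC 0.94, adjusted p = 0.0823 by edgeR). The spread among DT livers enters these tests, since 1 estimate of it is shared by all groups. With only saline and chow livers in the fit, edgeR called 7 members higher, adding S100a11, Anxa5, Anxa4 and Anxa8 (adjusted p = 0.00798, 0.00797, 0.0171 and 0.0483), and without DT liver 2 it called 5 higher, adding S100a11 and Anxa5 (adjusted p = 0.00681 and 0.0126). DESeq2 called 7 higher as well, but with Lgals3 (log2 FC 1.01 and adjusted p = 0.133 by edgeR, adjusted p = 0.0482 by DESeq2) and without Anxa4. Calls over all genes grew too, in either direction, from 950 of 17038 tested in the fit to all livers. They were 3105 of 15435 with only saline and chow livers, 1924 of 16938 without DT liver 2 and 1831 of 16677 by DESeq2.

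Anxa8 differed widely between the saline livers themselves, at 1.79, 0.346, 0.110 and 1.45 CPM in saline livers 1 to 4, against 0.103, 0.0409 and 0.0923 CPM in chow livers 1 to 3. The chow livers held 2 to 4 counts each, near the floor of 3 counts, and saline liver 3 held 6. Its difference was not called (log2 FC 3.53, SE 1.25, adjusted p = 0.13 by edgeR). Lgals9, Lgals8, S100a1 and S100a10, among the members highest in chow livers, had log2 FC of 0.02, -0.02, -0.08 and 0.18, none called. Lgals9 is a ligand of the receptor encoded by Havcr2, and Lgals8 recognises damaged vesicles inside cells.

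**Figure D2:**
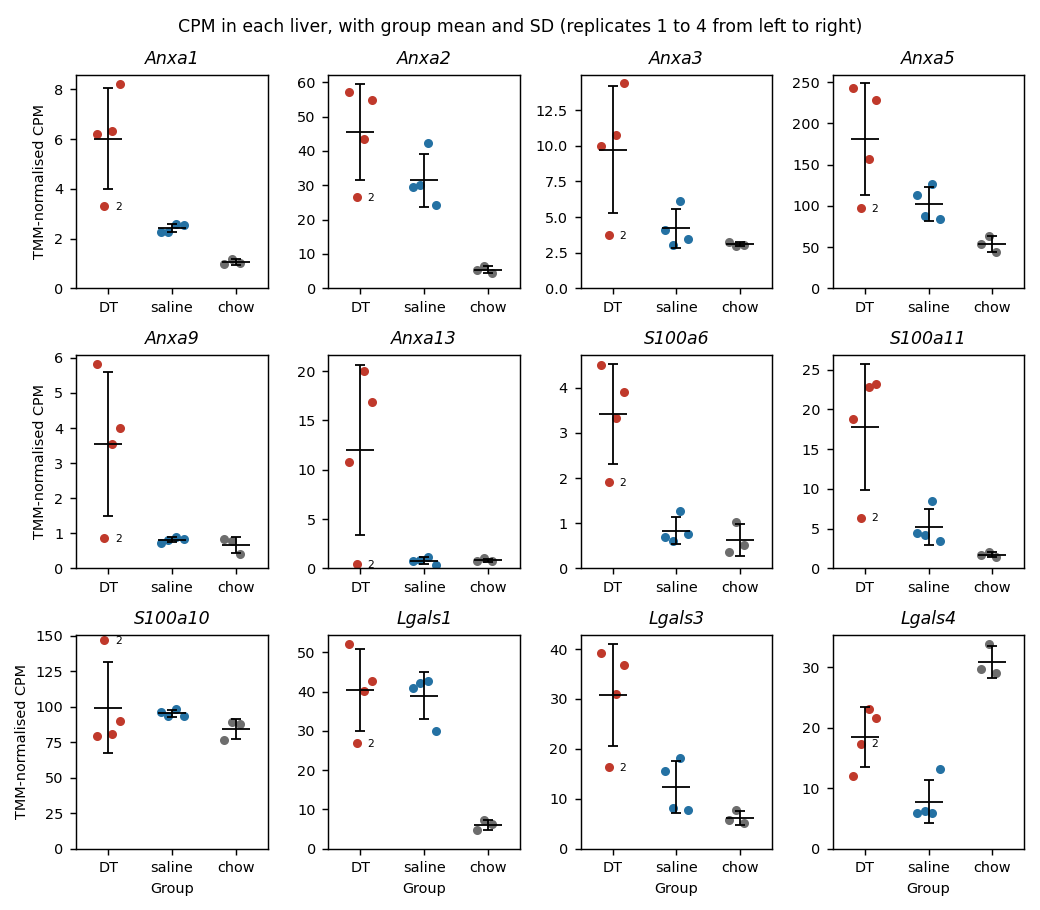
TMM-normalised CPM (vertical axes) of 12 members in each liver, by group (DT, saline and chow from left to right). Points are livers in replicate order, bars are the mean and SD, and the numeral marks DT liver 2. In Anxa9 and Anxa13 DT liver 2 sits with the saline livers, while in S100a6 and Anxa1 it sits above all of them.

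DT was then compared with saline on the same diet, so the groups differ by the injected agent as labelled. Loss of Clec4f-positive cells and other effects of DT are not separated by this comparison. Anxa13, Anxa9, Anxa1, Anxa3 and Anxa5 rose, as did S100a6 and S100a11 among the S100 genes and Lgals3 and Lgals4 among the galectins. Anxa7 and Anxa11 fell slightly. Anxa2 and Lgals1, the members with the largest called rises on the diet, were not called here. In all 11 of 24 tested members were called (45.8%), against 21.9% of all tested genes, a difference that was not tested. The members were chosen with earlier results of these data known. The 9 rises (37.5% of the tested members) stand beside 14.3% of genes called higher and the 2 falls (8.33%) beside 7.62% called lower. The median log2 FC was 0.36 over the members and 0.02 over all tested genes. By family 5 of 11 annexins rose and 2 fell, 2 of 8 S100 genes rose, and 2 of 5 galectins rose. In bulk liver, fewer cells of a type and less RNA per cell cannot be told apart, and the same holds for more.

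Anxa13, an annexin of gut and kidney epithelia that is anchored by a fatty acid, had 10.8, 0.437, 20.1 and 16.8 CPM in DT livers 1 to 4, against 0.734, 0.834, 1.19 and 0.298 CPM in saline livers 1 to 4. DT livers 1, 3 and 4 lay far above all saline livers and DT liver 2 lay among them. The fitted log2 FC was 3.97 (SE 0.826, adjusted p = 0.00985 by edgeR), and 4.37 without DT liver 2 (adjusted p = 1.53e-05). With limma-voom the call ended (adjusted p = 0.132). Anxa9, an annexin with atypical calcium-binding sites, had 5.82, 0.853, 3.54 and 3.99 CPM in DT livers 1 to 4, against 0.713, 0.814, 0.896 and 0.852 CPM in saline livers 1 to 4. Again DT liver 2 lay within the saline range. Its log2 FC was 2.12 (SE 0.466, adjusted p = 0.0118 by edgeR), and 2.44 without DT liver 2 (adjusted p = 6.09e-05). Exons of Anxa9 overlap those of Mindy1 on the other strand by 71 bases in GENCODE M21, and the strand setting of the counting is not stated. Anxa2, Anxa3, Anxa4, Anxa11, S100a4, Lgals2 and Lgals8 share exon bases with other annotated genes too.

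Anxa1 had 6.21, 3.31, 6.33 and 8.23 CPM in DT livers 1 to 4, above each saline liver (2.28 to 2.60 CPM), DT liver 2 included. Its log2 FC was 1.31 (SE 0.248, adjusted p = 0.00782 by edgeR), a call kept in all 11 refits without 1 liver and in the other 11 settings, and 1.51 without DT liver 2 (adjusted p = 6.71e-05). Anxa1 and S100a6 were the only 2 tested members whose DT and saline livers did not overlap upwards, where 9.33% of all tested genes did so.

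Anxa3, an annexin found in neutrophils among other cells, had 9.97, 3.73, 10.8 and 14.4 CPM in DT livers 1 to 4, against 4.12, 3.07, 6.15 and 3.49 CPM in saline livers 1 to 4. Its log2 FC was 1.21 (SE 0.346, adjusted p = 0.0297 by edgeR). The call ended without saline livers 1, 2 or 4 or DT livers 3 or 4 (highest adjusted p = 0.0905, without DT liver 4), with limma-voom and with the compared groups only (adjusted p = 0.0611 and 0.065), and the value was 1.48 without DT liver 2 (adjusted p = 0.000488). Anxa5 had 243, 96.8, 157 and 228 CPM in DT livers 1 to 4, against 113, 87.7, 127 and 83.7 CPM in saline livers 1 to 4. DT liver 2 lay within the saline range and the other DT livers above it. The log2 FC was 0.82 (SE 0.26, adjusted p = 0.0434 by edgeR), a call that held only without saline liver 3 or DT liver 2 among the 11 refits and ended in the other 9 (highest adjusted p = 0.124, without DT liver 4). It also ended with limma-voom, with no filter, with the compared groups only and with the replicate block (adjusted p = 0.0729, 0.0727, 0.0814 and 0.084). Without DT liver 2 it was 1.03 (adjusted p = 0.00166).

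Anxa7 and Anxa11 fell. Anxa7, a membrane-fusion annexin also called synexin, had 116, 112, 105 and 85.0 CPM in DT livers 1 to 4, all below the 142, 128, 136 and 141 CPM of saline livers 1 to 4. No other tested member lay lower without overlap, where 9.97% of all tested genes did. Its log2 FC was -0.38 (SE 0.109, adjusted p = 0.0292 by edgeR), and -0.42 without DT liver 2 (adjusted p = 0.01). Anxa11, an annexin that links RNA granules to lysosomes, averaged 39.2 ± 7.69 CPM in DT livers and 51.9 ± 4.63 CPM in saline livers (SD, n = 4 each), a log2 FC of -0.41 (adjusted p = 0.0449 by edgeR), and -0.55 without DT liver 2 (adjusted p = 0.000961). Both calls depended on single livers, with the highest adjusted p of 0.0805 for Anxa7 (without DT liver 3) and 0.122 for Anxa11 (without saline liver 4). Total count scaling moved the median log2 FC of all genes to 0.36, and neither was called under it (adjusted p = 0.706 for Anxa7 and 0.465 for Anxa11) or under upper quartile factors (0.0807 and 0.0682). Both calls also ended with no filter (adjusted p = 0.0537 and 0.0628), with the compared groups only (0.0699 and 0.0739) and with the replicate block (0.0521 and 0.0693). The count of 2 falls was 0 without any 1 saline liver and without DT livers 3 or 4, was 1 without any 1 chow liver or DT liver 1, and was 5 without DT liver 2. The refit without DT liver 2 called 6824 of all 16938 genes tested, in either direction, against 3734 of 17038 in the fit to all livers.

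Anxa2 had 57.3, 26.6, 43.6 and 54.7 CPM in DT livers 1 to 4, so that DT liver 2 lay within the saline range of 24.2 to 42.4 CPM and the other DT livers above it. It was not called (log2 FC 0.53, SE 0.239, adjusted p = 0.129 by edgeR), except without DT liver 2 (0.72, adjusted p = 0.011), without DT livers 1 and 2 together and with total count scaling (adjusted p = 0.0354 and 0.0363). Anxa4, Anxa6 and Anxa8 were not called either, with log2 FC of 0.20, 0.07 and -1.93.

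Among the S100 genes, S100a6, also called calcyclin, had 4.51, 1.91, 3.33 and 3.90 CPM in DT livers 1 to 4, against 0.693, 0.610, 1.28 and 0.767 CPM in saline livers 1 to 4. Every DT liver lay above every saline liver, and chow livers 1 to 3 were at 0.361, 1.02 and 0.508 CPM. This gave a log2 FC of 2.02 (SE 0.386, adjusted p = 0.00801 by edgeR), and 2.22 without DT liver 2 (adjusted p = 0.000574). S100a11 had 18.8, 6.37, 22.8 and 23.2 CPM in DT livers 1 to 4, against 4.48, 4.19, 8.52 and 3.49 CPM in saline livers 1 to 4. DT liver 2 lay below saline liver 3, the highest of the saline group. The fitted log2 FC was 1.78 (SE 0.385, adjusted p = 0.0111 by edgeR), and 2.06 without DT liver 2 (adjusted p = 0.000206). Both calls held in each of the 11 refits without 1 liver and in the other 11 settings.

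S100a10, the partner of Anxa2, was not called in any of the 3 comparisons in the fit to all 11 livers. It was near 79.1, 147, 80.8 and 89.7 CPM in DT livers 1 to 4, near 96.3, 93.4, 98.3 and 93.5 CPM in saline livers 1 to 4 and near 76.3, 89.1 and 88.0 CPM in chow livers 1 to 3. DT liver 2 was the highest of the 11 livers and the rest stayed within a narrow band. The log2 FC was 0.05 for DT against saline and 0.18 for saline against chow, neither called. Under total count scaling it was called for DT against saline (0.35, adjusted p = 0.0416) and for DT against chow (0.65, adjusted p = 0.00494). In raw counts, not corrected for transcript length, S100a10 exceeded Anxa2 by 1.38, 5.52, 1.86 and 1.64 times in DT livers 1 to 4, by 3.28, 3.11, 2.32 and 3.86 times in saline livers 1 to 4 and by 14.1, 13.6 and 20.2 times in chow livers 1 to 3. The ratio was thus lower in all 8 livers from the diet with alcohol than in any chow liver, and lowest in DT livers 1, 3 and 4.

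S100a8 and S100a9, which form calprotectin in neutrophils and monocytes, were low throughout. S100a8 had 0.746, 0.291, 1.58 and 1.15 CPM in DT livers 1 to 4, against 0.570, 0.285, 0.915 and 0.511 CPM in saline livers 1 to 4, and S100a9 stood at 0.716, 0.832, 2.85 and 1.38 CPM in DT livers 1 to 4, against 1.30, 0.325, 1.24 and 0.639 CPM in saline livers 1 to 4. The groups overlapped for both, and neither was called (log2 FC 0.73 and 0.72, adjusted p = 0.293 and 0.353 by edgeR). With DT liver 2 left out these were 1.02 and 0.91 (adjusted p = 0.0568 and 0.208), and without DT livers 1 and 2 together S100a8 was called (adjusted p = 0.0239). The 10 neutrophil markers summed to 6.403, 3.02, 9.69 and 7.94 CPM in DT livers 1 to 4, to 2.60 to 3.99 CPM in saline livers and to 2.56 to 5.26 CPM in chow livers, so that DT livers 1, 3 and 4 lay above all other livers. These sums were mostly Csf3r, which averaged 5.002 CPM in DT livers, 2.755 CPM in saline livers and 3.162 CPM in chow livers. The next highest mean of any marker in any group was 0.4066 CPM, that of Retnlg in DT livers. Of the 5 neutrophil markers tested for DT against saline, edgeR called 1 (Retnlg) higher and DESeq2 3 (Csf3r, Retnlg and Ngp). Of these 5, 4 had an unadjusted p below 0.05, and the median log2 FC was 1.86. The edgeR calls were Csf3r, Retnlg and Ngp without DT liver 2. Their part in the values of S100a8 and S100a9 was not tested. In saline livers 2 of the 10, Camp and Mpo, had no count. S100a1, S100a13 and S100a16 were not called, with log2 FC of -0.17, -0.34 and 0.00. Without DT liver 2, S100a1 and S100a13 were called lower (-0.37 and -0.46, adjusted p = 0.0165 and 0.0359), as they were without DT livers 1 and 2 together (adjusted p = 0.00226 and 0.0177).

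**Figure D3:**
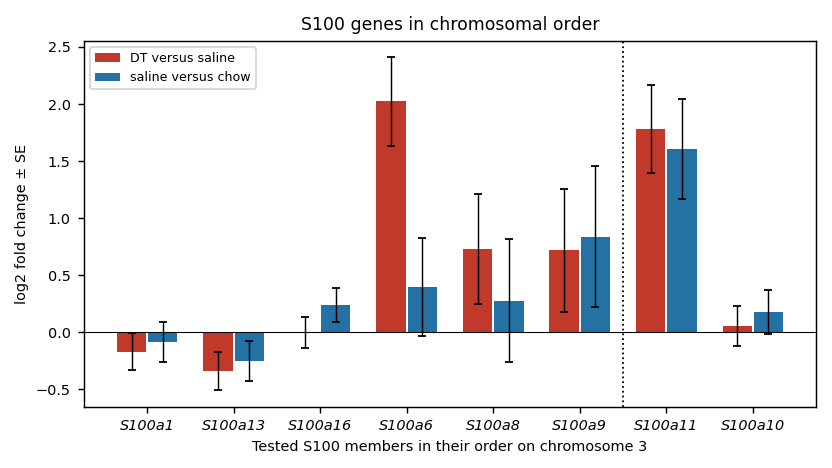
Log2 FC with SE (bars and whiskers) of the 8 tested S100 members in their order on chromosome 3, for DT against saline and saline against chow. The dotted line marks the break between the main run of S100 genes and the S100a11 and S100a10 pair. S100a6 and S100a11 stand at 2.02 and 1.78 for DT against saline, while S100a10, next to S100a11, is at 0.05.

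All 10 S100 members lie on chromosome 3 in the RefSeq gene order, 8 of them within an unbroken run of S100 genes and S100a11 and S100a10 as neighbours elsewhere on it. The 2 members that rose, S100a6 and S100a11, are not adjacent in the order. Whether a block rose around S100a6 cannot be told on one side, since S100a5 beside it had 0 counts and S100a4 too few to test. On the other side lies S100a7a, which the naming pattern leaves out. Beyond it lies S100a8, which was not called (log2 FC 0.73, adjusted p = 0.293 by edgeR). S100a4, nearby in the run, had 11, 2, 1 and 6 counts in DT livers 1 to 4, against 0, 2, 3 and 0 counts in saline livers 1 to 4. Without the filter its log2 FC was 1.54 (adjusted p = 0.45 by edgeR). S100a11 rose next to S100a10, which was not called.

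Among the galectins, Lgals3, which macrophages make in large amounts and which bears a single sugar-binding domain on a long tail, had 39.2, 16.3, 30.9 and 36.7 CPM in DT livers 1 to 4, against 15.6, 8.18, 18.1 and 7.69 CPM in saline livers 1 to 4. Saline livers 1 and 3 were higher than saline livers 2 and 4, and DT liver 2 lay between saline livers 1 and 3. This gave a log2 FC of 1.31 (SE 0.326, adjusted p = 0.0177 by edgeR), a call that ended without saline livers 2 or 4 or DT liver 4 (highest adjusted p = 0.0559, without saline liver 2). Without DT liver 2 it was 1.52 (adjusted p = 0.00279).

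Lgals4 had 12.0, 17.4, 23.1 and 21.6 CPM in DT livers 1 to 4, against 5.83, 6.28, 5.85 and 13.1 CPM in saline livers 1 to 4. DT liver 2 lay with the other DT livers here, and only DT liver 1 was below the highest saline liver. The fitted log2 FC was 1.25 (SE 0.277, adjusted p = 0.0119 by edgeR), and 1.28 without DT liver 2 (adjusted p = 0.00953). The fall of Lgals4 on the diet and its rise with DT were measured against the same saline livers, so they are not independent of each other. Every DT liver remained below every chow liver (29.1 to 33.9 CPM).

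Lgals1 had 52.1, 26.8, 40.0 and 42.6 CPM in DT livers 1 to 4, against 30.1 to 42.8 CPM in saline livers. DT liver 1 lay above the saline range, DT liver 2 below it and the other DT livers inside it. The gene was not called (log2 FC 0.05, SE 0.198, adjusted p = 0.871 by edgeR). Lgals8 averaged 132 ± 30.8 CPM in DT livers and 179 ± 27.7 CPM in saline livers (SD, n = 4 each). It was not called (log2 FC -0.44, adjusted p = 0.0782 by edgeR), except without DT liver 2 (-0.61, adjusted p = 0.00351) and without DT livers 1 and 2 together (adjusted p = 0.00609). Lgals9 was not called (log2 FC -0.20, adjusted p = 0.427) and was at -0.36 without DT liver 2 (adjusted p = 0.0737), but was called lower without DT livers 1 and 2 together (adjusted p = 0.000951). In Lgals2, the summed counts were 16 in DT livers and 8 in saline livers, too few to test.

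**Figure D4:**
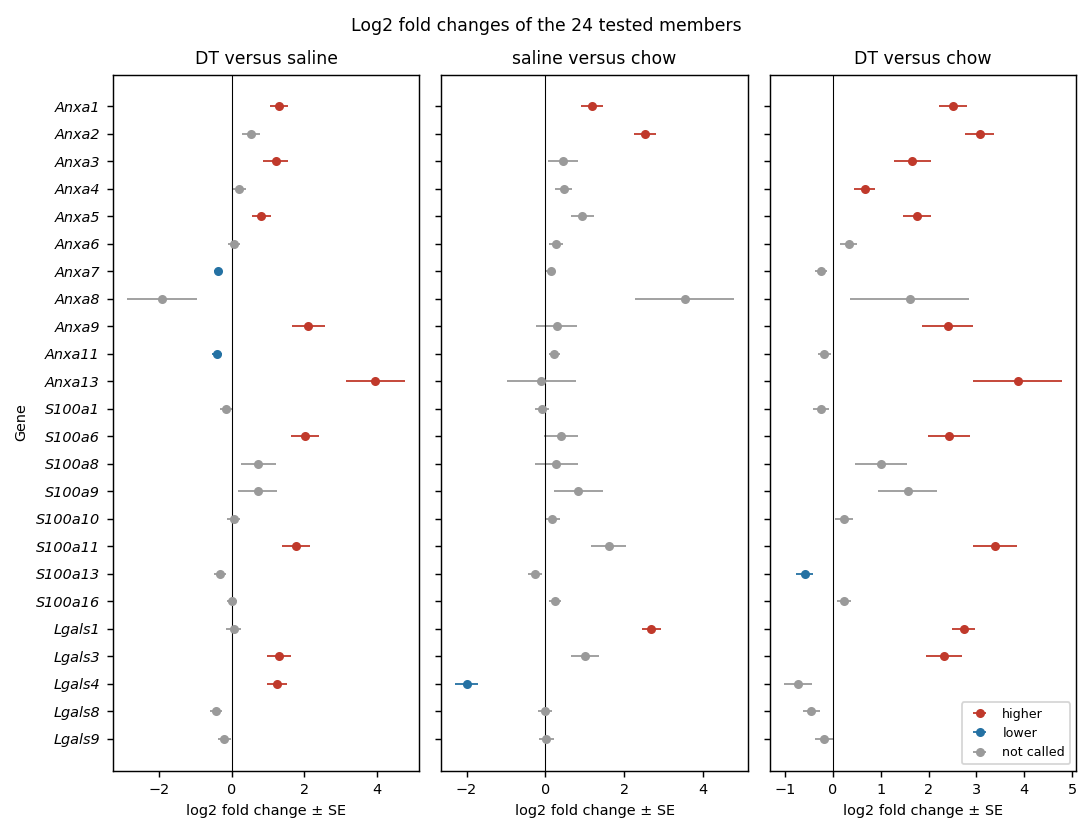
Log2 FC (horizontal axes, with SE) of the 24 tested members in the 3 comparisons, coloured by edgeR's call at an adjusted p below 0.05. Anxa13 has the largest called value for DT against saline, at 3.97, while Anxa2 and Lgals1 have the largest called values for saline against chow, at 2.53 and 2.68.

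Many of the rises shared the same livers. In 9 of the 24 tested members (37.5%) the highest 3 of the 11 values were those of DT livers 1, 3 and 4, which was so for 18.1% of all tested genes. These were Anxa1, Anxa2, Anxa3, Anxa5, Anxa9, Anxa13, S100a6, S100a11 and Lgals3, and in all of them but Anxa1 and S100a6, DT liver 2 was not above the highest saline liver. The median of the annexins relative to the chow mean, in log2 CPM, was 1.68, 0.27, 1.56 and 2.10 in DT livers 1 to 4, against 0.41, 0.31, 0.53 and 0.39 in saline livers 1 to 4. For the galectins it was 0.02, 0.21, -0.42 and -0.52 in DT livers 1 to 4, against 0.17, 0.07, -0.06 and 0.22 in saline livers 1 to 4. The median over all tested genes was between -0.05 and 0.01 in every liver.

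Some of the lists of markers of other cell types moved with these rises. The 6 cholangiocyte (bile duct cell) markers summed to 85.0, 8.89, 56.8 and 95.8 CPM in DT livers 1 to 4, to 3.88 to 7.72 CPM in saline livers and to 9.91 to 18.4 CPM in chow livers, and 6 of 6 rose with DT. The 6 markers of lipid-associated macrophages summed to 521, 84.6, 371 and 547 CPM in DT livers 1 to 4, to 43.6 to 114 CPM in saline livers and to 25.8 to 46.0 CPM in chow livers, and 6 of 6 rose. Spp1 had the largest mean of them, at 195 CPM in DT livers and 22.7 CPM in saline livers. The 7 markers of stellate cells and fibroblasts summed to 380, 88.2, 278 and 361 CPM in DT livers 1 to 4, to 52.9 to 109 CPM in saline livers and to 33.8 to 40.7 CPM in chow livers, and 6 of 7 rose. The calls numbered 6 of 6, 6 of 6 and 6 of 7 without DT liver 2 as well. None of these markers was without a count in any group. Their part in the rises of the annexins, S100 genes and galectins was not tested. Over all tested genes, 14.3% were called higher and 7.62% lower for DT against saline. Among other lists, edgeR called 1 of 4 tested T cell and 1 of 4 tested mesothelial markers higher, and 2 of 5 endothelial markers lower. It called none of 6 hepatocyte, 5 monocyte and 4 B cell markers. DESeq2 called 1, 2 and 4 in the former 3 lists and 1, 2 and 0 in the latter 3. For saline against chow, none of 6 cholangiocyte markers, none of 6 markers of lipid-associated macrophages and 1 of 7 stellate cell and fibroblast markers (Lrat, higher) was called by edgeR. At an unadjusted p below 0.05 there were 1 (Sox9, lower), 1 (Gpnmb, higher) and 3 of them, and DESeq2 called 1, 1 and 2.

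Of 18 partners, receptors and binding proteins of these families, all tested, 5 rose and 1 fell with DT by edgeR. These 6 calls (33.3%) stand beside 21.9% of all tested genes, with 14.3% called higher and 7.62% lower, a difference that was not tested. None of the 18 was called for saline against chow by edgeR, where 5.58% of all tested genes were. In that comparison Tlr4 and Lgals3bp, 2 of the 18, had an unadjusted p below 0.05 and were called by DESeq2, and limma-voom called 0. Plat, the tissue plasminogen activator that the Anxa2 complex binds, had 15.8, 0.541, 8.95 and 14.5 CPM in DT livers 1 to 4, against 0.204, 0.203, 0.622 and 0.213 CPM in saline livers 1 to 4. DT liver 2 lay within the saline range, and the log2 FC was 4.98 (adjusted p = 0.00633). Trem2, a lipid receptor of macrophages, rose by 2.70 and Ahnak, a giant scaffold protein bound by the Anxa2 complex, by 1.33 (adjusted p = 0.00774 and 0.00999). Trem2 is counted among the markers of lipid-associated macrophages too. Fpr1, a formyl peptide receptor of the kind that Anxa1 engages, fell by 1.20 (adjusted p = 0.00694), with 1.59 CPM on average in DT livers and 3.65 CPM in saline livers. Havcr2 and Plaur, the urokinase receptor, also rose (2.27 and 1.28, adjusted p = 0.0126 and 0.0236), and DT liver 2 lay within the saline range of Ahnak, Havcr2 and Plaur but not of Trem2 or Fpr1, whose groups did not overlap. Without DT liver 2 the log2 FC was 5.36 for Plat, 2.95 for Trem2, 1.59 for Ahnak, 2.58 for Havcr2, 1.49 for Plaur and -1.27 for Fpr1, all called, and 7 of the 18 were called higher and 2 lower. That refit called 6824 of all 16938 genes tested, in either direction. In the fit to all livers Ager, Tlr4, Fpr2, Cd44, Lgals3bp and Cacybp were among the 12 not called. Fpr2, also a formyl peptide receptor, had a log2 FC of -0.59 (adjusted p = 0.197 by edgeR), and -0.73 without DT liver 2 (adjusted p = 0.0955). Of 5 relatives outside the naming pattern, Lgalsl was tested and not called (0.51), S100b and S100g had too few counts to test, and S100z and Grifin had none.

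DT livers were last set against chow livers, which joins the diet, the injections and DT. In this comparison 11 of 24 tested members rose and 1 fell, that is 12 of 24 called. This stands beside 23.0% of all tested genes, with 14.8% called higher and 8.16% called lower, a difference that was not tested. These values share the DT livers with one comparison above and the chow livers with the other. S100a11 had a log2 FC of 3.39, Anxa2 of 3.06, Lgals1 of 2.74, Anxa1 of 2.50, S100a6 of 2.42, Lgals3 of 2.32 and Anxa5 of 1.75 (adjusted p = 0.00256, 0.000483, 0.000483, 0.00127, 0.00547, 0.00388 and 0.00423 by edgeR). All 7 of these calls held in each of the 11 refits without 1 liver. Without DT liver 2 the values were 3.67 for S100a11, 3.25 for Anxa2, 2.89 for Lgals1, 2.70 for Anxa1, 2.61 for S100a6, 2.53 for Lgals3 and 1.96 for Anxa5, all called, and 13 members were called higher, adding S100a8 and S100a9 (adjusted p = 0.0333 and 0.044). That refit called 6834 of all 16938 genes tested, in either direction, against 3919 of 17038 in the fit to all livers. Anxa13 (3.87), Anxa9 (2.40), Anxa3 (1.66) and Anxa4 (0.66) rose as well (adjusted p = 0.0143, 0.0103, 0.013 and 0.0461), and were at 4.27, 2.72, 1.93 and 0.82 without DT liver 2, all called. The Anxa13 call ended without any 1 chow liver (highest adjusted p = 0.0616), that of Anxa3 without chow livers 2 or 3 (highest adjusted p = 0.0524) and that of Anxa4 in 9 of the 11 refits (highest adjusted p = 0.13, without chow liver 1). Anxa13 also ended with limma-voom, no filter and the replicate block (adjusted p = 0.207, 0.056 and 0.0686), Anxa9 with limma-voom (adjusted p = 0.057), and Anxa4 with limma-voom, the compared groups only and the replicate block (adjusted p = 0.0762, 0.102 and 0.127). Anxa4 ranged over 36.2 to 73.4 CPM in DT livers and over 33.4 to 36.3 CPM in chow livers, with DT liver 2 inside the chow range.

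S100a13, which takes part in the export of a fibroblast growth factor, was the fall in that comparison. It had 14.2, 17.1, 12.2 and 11.4 CPM in DT livers 1 to 4, against 21.9, 21.8 and 18.04 CPM in chow livers 1 to 3. The log2 FC was -0.59 (adjusted p = 0.0347 by edgeR), and the call ended without any 1 chow liver, without saline liver 2 and without DT livers 3 or 4 (highest adjusted p = 0.114, without chow liver 1), as well as under total count scaling, upper quartile factors and the compared groups only (adjusted p = 0.449, 0.0704 and 0.0644). The value was -0.71 without DT liver 2 (adjusted p = 0.00578). The count of 1 fall was 0 without any 1 chow liver, without saline liver 2 and without DT livers 3 or 4, was 2 without saline liver 4 and was 4 without DT liver 2. Lgals4, at 12.0 to 23.1 CPM in DT livers and 29.1 to 33.9 CPM in chow livers, was not called (-0.74, adjusted p = 0.0858) except with the replicate block and without saline liver 4 (adjusted p = 0.0305 and 0.0244).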

How the data were processed

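RNA of 11 livers was sequenced by the authors. The submitters' processing notes name FastQC, STAR, featureCounts and build GRCm39, while versions, annotation, strand setting and treatment of mates are not given in the sources used here. The table deposited by the authors gives unnormalised counts for each Ensembl gene, in 1 column per library, with totals of 43995217 to 58089531. A count of 3, taken as the floor, equals 0.0398 to 0.0773 CPM and covers counting error only. Of counts up to 20, 79% were even, which would follow from counting both mates, so halved counts were tried. From these counts edgeR 4.0.16 (limma 3.58.1, DESeq2 1.42.0, R 4.3.3) fitted 1 mean per group after filterByExpr and TMM scaling, with robust quasi-likelihood tests, two-sided, 8 residual degrees of freedom and Benjamini-Hochberg adjustment over 17038 genes. SE is the log2 FC divided by the square root of F, and 2 was the prior count for log2 CPM. The fit was tested on simulated data. No 2 libraries of a group were copies.

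The members, the lists and the rule for naming genes were chosen with earlier results of these data known. The rule gave values in every liver for members called in DT against saline or saline against chow, up to 7 per family by smallest adjusted p, and for their known partners. Symbols are those of the count table. Gene lengths and overlaps came from GENCODE M21 and promoters from RefSeq, both of an earlier build. The p-value of each test is edgeR's unless another tool is named. Alternatives covered scaling, tool, filter, the samples in the fit, the replicate block, halved counts and left-out livers. No library was left out of the values reported.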

Additional observations from a re-analysis of the deposited data

Results flagged for a closer look

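In 48 pairs of a tested member and a group of 4 livers, 1 liver stood apart from the other 3 in log2 CPM by Dixon's ratio (its gap to the nearest liver over the group's range) in 4 pairs, and chance gives about 5% of groups. All 4 ratios were above the 95% critical value for 4 livers. DT liver 2 stood apart in Anxa13 (ratio 0.834, at 0.437 CPM against 10.8 to 20.1 CPM in the other DT livers) and in S100a11 (ratio 0.837, at 6.37 CPM against 18.8 to 23.2 CPM). Saline liver 4 stood apart in Lgals1 (ratio 0.877, at 30.1 CPM against 41.0 to 42.8 CPM in the other saline livers) and in Lgals4 (ratio 0.907, at 13.1 CPM against 5.83 to 6.28 CPM). In both of these genes saline liver 4 was the saline liver nearest to the chow livers.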

How the results depend on the processing

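Of the 11 members called for DT against saline, 5 were called in all 22 settings tried, of 4 called for saline against chow 3 were (Anxa2, Lgals1 and Lgals4), and of 12 called for DT against chow 7 were. No called member changed direction in any setting. For DT against saline, 3734 genes were called in all, 1786 to 6824 with 1 liver left out (the ends without saline liver 2 and without DT liver 2), 5629 under total count scaling, 2303 with the compared groups only and 7894 without DT livers 1 and 2. Members higher were 6 to 10 with 1 liver left out. Members lower were 0 to 5 with 1 liver left out, 0 under total count scaling, upper quartile factors, no filter, compared groups only and the replicate block, and 6 without DT livers 1 and 2. For saline against chow, 950 genes were called, 287 to 1924 with 1 liver left out, 1831 by DESeq2, 3105 with the compared groups only, 559 with the replicate block and 3311 without DT livers 1 and 2. Members higher were 3, with 2 to 5 with 1 liver left out, 7 by DESeq2 and with the compared groups only and 6 without DT livers 1 and 2. Members lower were 1 in each refit with 1 liver left out. For DT against chow, 3919 genes were called, 1786 to 6834 with 1 liver left out, 6536 under total count scaling, 2089 with the compared groups only, 2210 with the replicate block and 7827 without DT livers 1 and 2. Members higher were 8 to 13 with 1 liver left out. Members lower were 1, with 0 to 4 with 1 liver left out, 0 under total count scaling, upper quartile factors and compared groups only, 2 with the replicate block and 6 without DT livers 1 and 2. Total count scaling moved the median log2 FC of all genes to 0.36, 0.13 and 0.44 for DT against saline, saline against chow and DT against chow. The share of called genes that were higher was 65.2%, 43.9% and 64.5% as reported, 92.1%, 67.0% and 94.8% under total count scaling, 75.7% and 77.6% for both DT comparisons under upper quartile factors, and 53.1% and 50.6% for them with limma-voom. The cause of these shifts was not tested.

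Uncalled members with values near 0 changed sign. For DT against saline, log2 FC with 1 liver left out ran from -0.05 to 0.17 in Anxa6, -0.20 to 0.16 in S100a10, -0.09 to 0.12 in S100a16 and -0.08 to 0.21 in Lgals1. Without DT livers 1 and 2 it was -0.01 in Anxa6, -0.16 in S100a10 and -0.23 in S100a16, and S100a16 was at -0.03 with limma-voom, 0.00 with the compared groups only and -0.01 with the replicate block. Under total count scaling S100a1 was at 0.14 and Lgals9 at 0.10. For saline against chow, it ran with 1 liver left out from -0.38 to 0.16 in Anxa13, -0.03 to 0.50 in S100a8, -0.10 to 0.08 in Lgals8 and -0.03 to 0.07 in Lgals9. Under total count scaling Anxa13 and S100a1 were both at 0.04 and Lgals8 at 0.11, and Lgals8 was at 0.01 with RLE factors and DESeq2 and 0.00 with upper quartile factors. For DT against chow under total count scaling, Anxa7 was at 0.21, Anxa11 at 0.26, S100a1 at 0.18 and Lgals9 at 0.25, and S100a10 ran from -0.02 to 0.34 with 1 liver left out.

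Deviations of same-numbered DT and saline livers from their group means correlated at 0.077, 0.166, 0.177 and -0.161. Differently numbered livers were not compared, so these values cannot settle whether the replicate numbers pair the livers. With the replicate block, members called higher and lower were 8 and 0 for DT against saline, 2 and 1 for saline against chow, and 9 and 2 for DT against chow. Depth limits S100a4, S100a14 and Lgals2, which were not called in any comparison without the filter.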
